A study of Drosophila melanogaster with 8 samples.

Results

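The cytosolic ribosomal protein genes of Drosophila melanogaster and their paralogs were followed in total RNA from wing imaginal discs, the larval epithelia that form the adult wing and thorax. Members were the rows of the deposited table of normalized counts whose FlyBase symbol begins with RpL (large subunit) or RpS (small subunit), 92 of 18354 gene rows, with 54 RpL and 38 RpS symbols. Of these, 86 had a mean of at least 10 normalized counts and were tested, 52 RpL and 34 RpS. The other 6 are low-level paralogs and are given by their values alone. All larvae had the genotype nub>mRFP, in which the nubbin (nub) driver, active in the wing pouch and part of the hinge, expresses the fluorescent protein mRFP. The 4 control libraries had nothing more, and in the 4 others (nub>mRFP; ecd-RNAi) the same driver also expressed RNAi against ecd up to dissection. Each library was made from 2 µg of total RNA of 150 pooled discs, taken 7 days after egg laying from third-instar larvae kept at 25 °C, and the 4 libraries per group are biological replicates according to the labels. Disc cells outside the nub domain are part of every library, and in such bulk RNA fewer cells of a type and less RNA per cell cannot be told apart.

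The labels and the summed signal were checked before the members were compared. Normalized counts summed to between 35110994 and 37879705 in control libraries and between 27403922 and 32623572 in libraries labelled ecd-RNAi. These values were already scaled, so their sums do not give the number of reads. Over protein-coding genes the sums lay between 15832388 and 15931037 in controls and between 15215812 and 15961051 in the other group. The transcript of ecd, the gene targeted, was higher rather than lower in the libraries labelled ecd-RNAi (1348 ± 114 against 1028 ± 25.9 normalized counts, SD, n = 4). These bulk values thus do not show a knockdown, and they do not decide whether the label is right. The reason was not tested, and each direction is given for "libraries labelled ecd-RNAi". All 7 wing disc markers were detected, 1 of them higher and 6 lower, beside 30.8% and 31.7% of all genes tested. The log2 fold change was 0.60 for wg, -1.44 for dve, -0.88 for ct, -0.64 for ap, -0.44 for vg and -0.31 for sd. The fall was smallest for nub itself (-0.12), at 11475 ± 517 in controls and 10576 ± 284 in the other group. Of 9 germline markers measured, osk was at 0 in all 8 libraries and zpg in all but 1, at 0.831. The summed germline list lay between 1688 and 2129 normalized counts in controls and between 2022 and 2240 in libraries labelled ecd-RNAi, most of it from AGO3.

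A ribosome holds 1 copy of almost every ribosomal protein, and the genes for these proteins are among the most strongly transcribed of a growing tissue. In Drosophila, loss of 1 copy of many of them gives the Minute phenotype, with slow development and thin bristles, and cells with such a loss are removed by wild-type neighbours in wing discs. That removal needs RpS12 and the transcription factor Xrp1, which is named in the title of the series. Some ribosomal proteins have a duplicate gene, and several duplicates are used mainly in the germline, RpS5b, RpS19b and RpL22-like among them. In yeast, the counterparts of RpL24-like, RpL7-like and RpLP0-like are assembly factors of the large subunit and not parts of the mature ribosome.

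Ribosomal protein transcripts took a larger part of the protein-coding signal in the libraries labelled ecd-RNAi. Their summed normalized counts were 11.2%, 10.5%, 11.1% and 11.6% of the sum over protein-coding genes in control replicates 1 to 4. In replicates 1 to 4 labelled ecd-RNAi the shares were 13.3%, 12.5%, 12.6% and 13.1%. The groups did not overlap in this share, which averaged 11.1% ± 0.470 and 12.9% ± 0.412 (SD, n = 4). Large and small subunit genes kept nearly the same proportion: the sum of RpL over the sum of RpS genes was 1.501 ± 0.0135 in controls and 1.495 ± 0.0208 with the ecd-RNAi label.

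Most single genes moved by a small amount in the same direction. Of the 86 genes tested, 55 were higher, 6 were lower and 25 did not pass (limma on log2(normalized count + 1), Benjamini-Hochberg adjusted p under 0.05 over all 9380 genes tested). Over all genes tested, 30.8% were called higher and 31.7% lower. The median log2 fold change was 0.19 over the members and 0.00140 over all genes tested, and the members lay between -1.21 and 0.64, with quartiles of 0.096 and 0.26. Of the 52 large subunit symbols 32 were higher and 3 lower, with a median of 0.20. Of the 34 small subunit symbols 23 were higher and 3 lower, with a median of 0.18. The authors' deposited table gave 60 members higher and 6 lower, where 24.1% of its genes with an adjusted p were higher and 23.4% lower. The groups did not overlap at all in 56 of the 86 members, 50 of them higher, whereas 28.0% of all genes tested were higher and 29.2% lower without overlap. Recentring each library on its median gene lowered the count to 37 higher and 9 lower members, while over all genes the calls then split into 2285 higher and 3691 lower, against 2889 and 2970 as deposited.

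**Figure D1:**
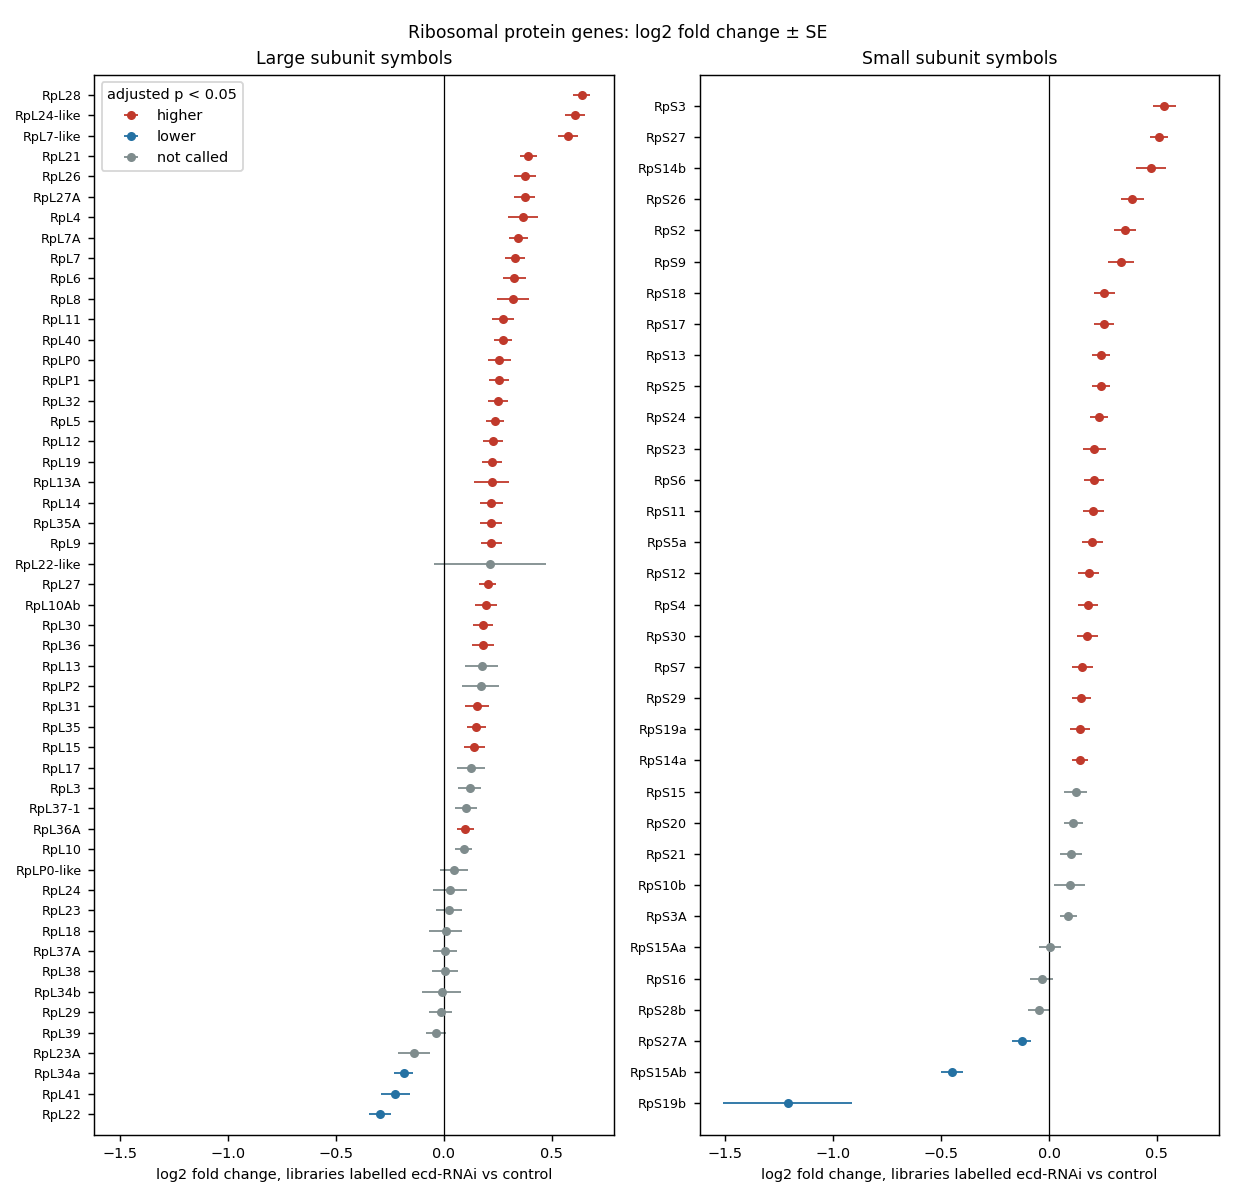
Log2 fold change with its standard error (x axis) of ribosomal protein genes tested, ordered by value, with RpL symbols in the left panel and RpS symbols in the right panel; red and blue points passed at an adjusted p under 0.05. Most points lie between 0 and 0.4, RpL28 and RpS3 stand at the top of their panels at 0.64 and 0.53, and RpS19b lies lowest at -1.21.

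Large rises among structural proteins included those of RpL28, RpS3, RpS27 and RpL21. The paralog RpS14b, with a log2 fold change of 0.47, is given further below. RpL28 (FBgn0035422, chromosome 3L, 3220911 to 3222960 of BDGP6, minus strand), a eukaryote-specific protein of the large subunit, was measured at 10144, 10154, 10732 and 11011 normalized counts in control replicates 1 to 4. In replicates 1 to 4 labelled ecd-RNAi it was at 15714, 16329, 16513 and 16932. Every value of the second group lay above every control, a 1.56-fold difference of means (log2 fold change 0.64 with an SE of 0.040, adjusted p = 3.92e-07 by limma). Exons of RpL28 overlap nSMase on the opposite strand and 2 snoRNA genes on its own, so reads of these genes could be counted among its values.

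RpS3, a small subunit protein at the mRNA entry channel and a classic Minute locus, went from 21929, 20995, 22971 and 24512 to 34082, 32498, 32308 and 31883 normalized counts. That is 1.45-fold higher with no overlap (log2 fold change 0.53, SE 0.052, limma adjusted p = 8.72e-06). RpS27, a zinc-binding protein of the small subunit, read 13942, 13980, 14316 and 14982 in controls against 20678, 20841, 20780 and 19134, which is 1.42-fold higher. Here replicate 4 labelled ecd-RNAi was the lowest of its group and still above every control (adjusted p = 2.54e-06, limma). RpL21, a large subunit protein, averaged 24261 ± 820 normalized counts in controls and 31820 ± 571 in the other group (SD, n = 4), a 1.31-fold rise (limma adjusted p = 9.94e-06). RpS12 rose less, from 16131 ± 857 to 18320 ± 818, 1.14-fold (adjusted p = 0.00761, limma), close to the median of the members, and the call was lost after recentring.

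The 6 members that fell were RpL22, RpL41, RpS27A, RpL34a, RpS15Ab and RpS19b, of which the last 3 are the lower-level copies of their families. RpL22 (chromosome X, 762560 to 765130, minus strand), a large subunit protein that in flies carries a long histone H1-like extension, was at 25332, 24192, 24670 and 24323 normalized counts in controls. The libraries labelled ecd-RNAi gave 21703, 20730, 18568 and 19350. Its log2 fold change was -0.30 (SE 0.051, limma adjusted p = 0.000543), with every library of the second group below every control. Exons of RpL22 overlap the non-coding RNA gene lncRNA:CR42491 on the same strand, so reads of that gene could be counted among its values. RpL41, which encodes a peptide of the large subunit that is among the shortest of eukaryotic proteins, read 70224, 60041, 61591 and 65520 in controls and 58248, 50979, 53537 and 57547 in the other group. The groups did not overlap, but the highest library labelled ecd-RNAi lay close to the lowest control, control replicate 2 (log2 fold change -0.22, limma adjusted p = 0.0136). Per kb of transcript RpL41 had the highest level of all members, 201075 normalized counts in controls, and the other main copies and single genes lay upwards from 13451.

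RpS27A, RpL40 and RpS30 are made as fusions, the first 2 to ubiquitin and the last to a ubiquitin-like protein. RpS27A was 31479 ± 893 in controls and 28848 ± 1291 normalized counts in libraries labelled ecd-RNAi, and fell by 0.13 on the log2 scale (limma adjusted p = 0.0289). That call was lost after rescaling to the protein-coding sum, without control replicate 1 or 4 or without replicate 2 or 3 labelled ecd-RNAi, and its exons overlap those of Ip259 on the same strand. RpL40 moved the other way, from 14543, 14173, 15010 and 15985 to 17960, 18030, 17970 and 18156 (log2 fold change 0.27, limma adjusted p = 0.000213), with no overlap. RpS30 was also higher, with a log2 fold change of 0.18 (adjusted p = 0.00991, limma).

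Of the genes with the highest level per kb of transcript, RpL27A had a log2 fold change of 0.38 (limma adjusted p = 8.49e-05). RpS7 rose 1.11-fold, from 34577 ± 1703 to 38439 ± 1492 normalized counts, and RpL31 rose 1.11-fold, from 23359 ± 1740 to 25969 ± 897 (SD, n = 4; limma adjusted p = 0.0198 and 0.0342). In both the groups overlapped, and neither call held with quantile normalization or after recentring. The RpS7 call was lost without control replicate 1 or 2 or replicate 1 labelled ecd-RNAi, and that of RpL31 without any of 6 libraries (control replicate 1, 2 or 3, or replicate 1, 2 or 4 labelled ecd-RNAi). RpL39, whose exons overlap those of RpL12 on the opposite strand, had a log2 fold change of -0.036 and did not pass (adjusted p = 0.528, limma). It was called lower after recentring, at -0.13 (adjusted p = 0.0278), and stood at 0.10 with quantile normalization, where it did not pass.

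In 13 families at least 1 further gene carries the name of the main copy, and the member with the highest level per kb of transcript was taken as the main copy. Levels of the other 14 genes ranged widely. As means over all 8 libraries, RpS14b stood at 48.0% of RpS14a per kb, RpL34a at 25.9% of RpL34b and RpL24-like at 17.2% of RpL24. RpS15Ab reached 7.40% of RpS15Aa, RpL7-like 6.20% of RpL7 and RpLP0-like 3.09% of RpLP0. RpL22-like and RpS19b lay far lower, at 0.0769% of RpL22 and 0.0670% of RpS19a. The percents given per group further below are ratios of normalized counts, not corrected for length, and are not the same measure. For 8 of the 14 the change was compared with that of the main copy in an exact permutation test over the 8 libraries, two-sided, on the log2 ratio of the copies. The smallest p that 4 against 4 libraries can give is 0.0286, and 6 of the 8 pairs reached it (Benjamini-Hochberg adjusted p = 0.0381 over the 8 pairs).

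Of these 6 paralogs, 3 gained on their main copy. RpL24-like (chromosome 3R), whose yeast counterpart Rlp24 holds the place of the L24 protein in particles that are still being assembled, read 2524, 2226, 2443 and 2494 normalized counts in controls. It read 3859, 3631, 3529 and 3723 in replicates 1 to 4 labelled ecd-RNAi, 1.52-fold higher (log2 fold change 0.61, limma adjusted p = 1.72e-06). RpL24 itself was at 19987, 16982, 18930 and 19357 and then at 21473, 20546, 17381 and 17593, so its groups overlapped (log2 fold change 0.029, adjusted p = 0.762, limma). As a result RpL24-like went from 12.9% ± 0.197 to 19.3% ± 1.72 of the RpL24 value, a difference in log2 fold change of 0.58 (exact permutation p = 0.0286). Exons of RpL24 overlap CG7099 and those of RpL24-like overlap Dtd, both on the opposite strand. RpL7-like (chromosome 2L), related to the yeast assembly factor Rlp7, rose 1.49-fold, from 1421 ± 83.0 to 2116 ± 48.0, while RpL7 rose 1.26-fold. The difference for this pair was 0.25 (exact permutation p = 0.0286). RpS14b and RpS14a are neighbours on the X chromosome that encode the same protein, so how reads were shared between them is uncertain. RpS14b was at 4298, 3681, 4337 and 4820 and then at 6171, 5875, 5741 and 5874, or 32.2% ± 2.22 and 40.3% ± 0.656 of RpS14a, which itself rose by a log2 fold change of 0.14, a call lost after recentring (0.052).

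The other 3 lost ground. RpS15Ab (chromosome 2R), a copy without introns, fell from 2147, 1953, 1927 and 2166 to 1526, 1413, 1532 and 1519 normalized counts (log2 fold change -0.45, limma adjusted p = 2.35e-05). Its main copy RpS15Aa differed by less than the spread between replicates, 24339 ± 803 against 24447 ± 1608, so that RpS15Ab went from 8.41% ± 0.279 to 6.14% ± 0.320 of it. RpS19b (chromosome 3R, 23932729 to 23933530, minus strand) was at 19.5, 17.9, 19.0 and 13.5 in controls and at 6.08, 5.90, 6.66 and 9.46 in replicates 1 to 4 labelled ecd-RNAi. All 4 of the second group lay below all controls (2.49-fold lower, log2 fold change -1.21, SE 0.30, limma adjusted p = 0.00513). These are low values, since 3 reads were worth about 3.41 normalized counts on average in controls and 2.65 in the other group. RpS19b averaged 17.5 in controls, 7.02 in libraries labelled ecd-RNAi and 12.2 over all libraries. It therefore passed the filter on the mean only through its control values, and its mean in the other group lay under that filter. Both its limma test and its pair test rest on this selection. RpS19a rose 1.10-fold with overlapping groups, and its call was lost after recentring (0.052) and without control replicate 1 or 2 or replicate 1 labelled ecd-RNAi. The pair differed by -1.35 in log2 fold change. Of the germline markers, grk fell from 142 ± 16.6 to 61.7 ± 1.87 and orb from 54.0 ± 9.18 to 26.8 ± 8.74 normalized counts (SD, n = 4; limma adjusted p under 0.05), AGO3 rose, and bgcn and aub did not pass. Their part in the RpS19b values was not tested. RpLP0-like (exons overlapping Jra on the opposite strand), related to yeast Mrt4, was at 869 ± 61.9 and 897 ± 55.9, while RpLP0, the base of the ribosomal stalk, rose 1.20-fold. This pair differed by -0.21.

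**Figure D2:**
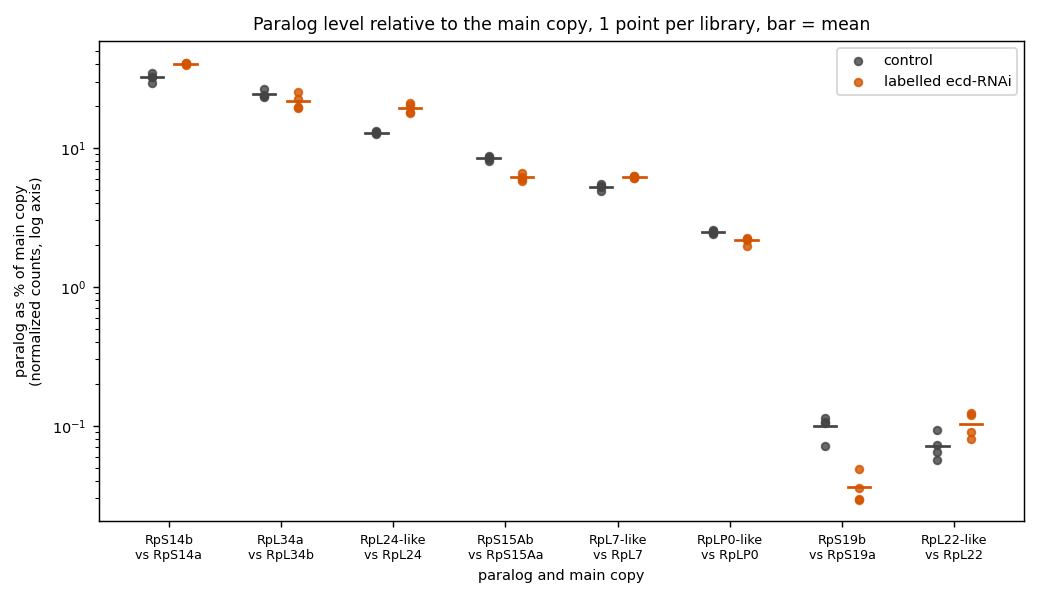
Value of each paralog as a percent of its main copy (y axis, logarithmic) in every library, with 1 point per library and a bar at the mean, for the 8 pairs tested. RpL24-like moves from 12.9% to 19.3% of RpL24, RpS15Ab from 8.41% to 6.14% of RpS15Aa and RpS19b from 0.0989% to 0.0359% of RpS19a, and the groups overlap for RpL34a and RpL22-like.

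In the remaining 2 pairs tested the groups overlapped. RpL34a fell from 2264 ± 60.6 to 1992 ± 114 normalized counts (limma adjusted p = 0.0047; the call was lost with quantile normalization, at -0.081), and RpL34b was spread between 8263 and 10807 in libraries labelled ecd-RNAi, so the ratio of the pair did not pass (exact permutation p = 0.2). RpL22-like was at 14.4, 22.7, 17.8 and 15.8 in controls and at 26.0, 16.7, 16.6 and 23.9 in the other group, which overlap (adjusted p = 0.495, limma). Its difference from RpL22 was 0.51 (exact permutation p = 0.0857).

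Of the 6 paralogs under the filter, all but RpS5b were under the value of 3 reads in most libraries. RpS5b was at 3.09, 4.78, 4.75 and 7.89 normalized counts in controls and at 6.08, 8.84, 5.82 and 17.1 in replicates 1 to 4 labelled ecd-RNAi, and its main copy RpS5a was at 37205 ± 1556 and 42754 ± 1804. RpL10Aa was at 0 in all controls and at 0, 0.977, 1.65 and 6.83, and RpL37-2 was at 2.02 in control replicate 1, at 0 in the other controls, and at 2.59, 0.985, 0 and 9.58. Replicate 4 labelled ecd-RNAi held the highest value of RpS5b, RpL10Aa and RpL37-2, as it did of RpS19b within its group. Of the germline markers AGO3, bam, bgcn and vas were highest within that group in replicate 4 as well, but aub, grk and zpg were highest in replicate 3 and orb in replicate 1. Summed fat body markers were highest within that group in replicate 4, at 5282. Their part in these values was not tested. RpS10a and RpS28a had a value above 0 in 1 library of each group, at most 1.69, and RpS28-like did not exceed 2.36. The main copies RpL10Ab and RpS5a rose by log2 fold changes of 0.20 each (limma adjusted p = 0.00689 and 0.00452), calls that were lost after recentring, and RpL37-1, RpS10b and RpS28b did not pass (adjusted p = 0.113, 0.282 and 0.465, limma). Each was called under another scaling, RpS10b higher by 0.25 and RpL37-1 by 0.12 with quantile normalization, and RpS28b lower at -0.14 after recentring. RpL37-1 was also called higher after rescaling to the protein-coding sum, at 0.13, and without control replicate 4, at 0.14.

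Within each group the members rose and fell together from library to library. Among the 86 tested, 71 had their lowest control value in replicate 2 and 71 their highest in replicate 4. Over all genes tested, the same 2 libraries held the lowest and the highest control value of 24.9% and 26.1%. In the libraries labelled ecd-RNAi, replicate 1 held the highest value of 55 members and replicate 3 the lowest of 49. The same 2 libraries held the highest and the lowest value of that group for 26.0% and 26.8% of all genes tested. Summed fat body markers were highest in control replicate 2, at 8161 normalized counts against 1109 in the lowest control. Summed hemocyte markers were highest in replicate 1 labelled ecd-RNAi, at 2926, and Hml, NimC1, He, Pxn, eater and Nplp2 were all highest there. Between the groups 2 of the 5 hemocyte markers tested were higher, Hml by 0.66 and NimC1 by 0.71 on the log2 scale (limma adjusted p = 0.0265 and 0.00531), and 0 were lower. Their part in the rise of the members was not tested. Without control replicate 2 the members split into 48 higher and 6 lower, and without replicate 1 labelled ecd-RNAi into 48 and 7.

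**Figure D3:**
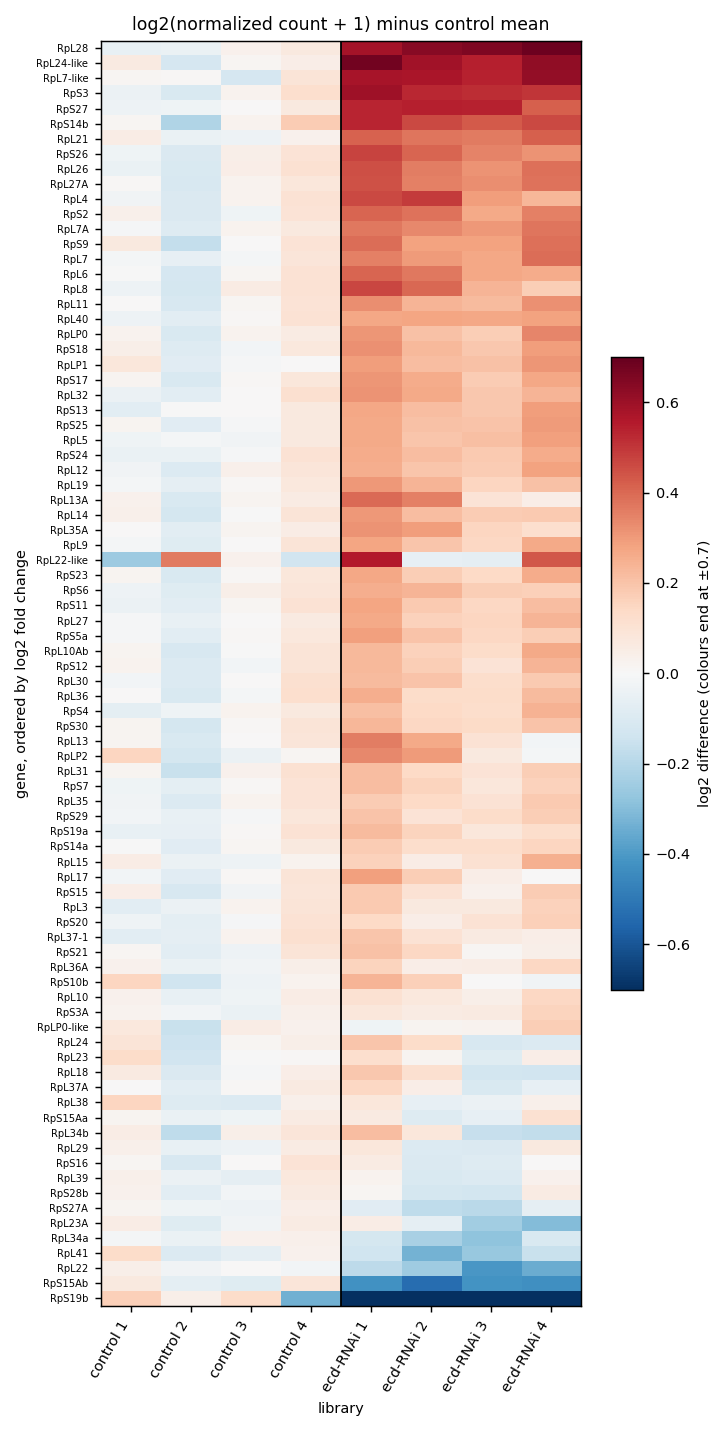
Log2(normalized count + 1) of members tested minus its control mean (colour, ends at ±0.7), with libraries in columns and genes in rows ordered by log2 fold change. Control replicate 2 is pale blue and control replicate 4 pale red for most genes, and a band of genes that includes RpL13A, RpL13, RpL18 and RpL34b is redder in replicates 1 and 2 labelled ecd-RNAi than in replicates 3 and 4.

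A smaller set of genes was more spread within the libraries labelled ecd-RNAi. The 10 main copies or single genes with the largest standard deviation of log2 values in that group were chosen for this after their values were seen, so no test was made. They were RpL34b, RpL13A, RpLP2, RpL13, RpL18, RpL23A, RpL24, RpL8, RpL17 and RpL4, all 10 from the large subunit. Their standard deviations were 0.127 to 0.190 in that group and 0.0696 to 0.121 in controls, beside medians over the members tested of 0.0613 and 0.0751. RpL18, for example, was at 20793, 19748, 16683 and 16648 normalized counts in replicates 1 to 4 labelled ecd-RNAi, and at 17005 to 19077 in controls. RpL13A was at 31635, 30692, 25767 and 24833 in that group and at 22327 to 25055 in controls. The lowest library was replicate 3 for RpL24 and replicate 4 for the others, and in 9 the highest was replicate 1. Among the 86 members tested, replicate 3 was lowest for 49, replicate 4 lowest for 18 and replicate 1 highest for 55. The shares over all genes tested were 26.8%, 28.7% and 26.0%. Of the 10 genes 3 were called higher and 7 did not pass, beside 30.8% of all genes tested called higher. The authors' deposited table gave 4 of the 10 as higher. The genes were chosen for their spread, which by itself makes a call less likely. The missing calls therefore do not show that the groups were alike.

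The change was spread over the chromosomes and did not follow gene structure closely. Among the 78 main copies and single genes, the median log2 fold change was 0.24 on chromosome 2L (17 genes), 0.17 on 2R (17), 0.21 on 3L (14), 0.21 on 3R (16) and 0.14 on X (13). RpS3A, the single gene on chromosome 4, was at 0.090 and did not pass by limma, but was called higher in the authors' deposited table. Genes with at most 1 intron had a median of 0.26 (12 genes), those with 2 introns 0.15 (32), those with 3 introns 0.20 (20) and those with 4 or more 0.19 (14). Across these 78 genes, which share all 8 libraries, the Spearman correlation of log2 fold change with the number of introns was -0.11, with transcript length 0.20 and with level per kb 0.0144.

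Introns of ribosomal protein genes also carry snoRNA genes, whose products guide the modification of rRNA. The 27 main copies or single genes with such a snoRNA had a median log2 fold change of 0.18, and the 51 without one 0.20. Of 67 snoRNA genes lying in introns of members, 44 were at 0 in every library and 18 passed the filter. Of these 18, 5 were lower, 0 higher and 13 not called by limma. Over all 91 snoRNA genes tested 25 were higher and 18 lower. Of the 27 host genes 20 were higher and 1 lower, beside 32 higher and 2 lower of the 51 without a snoRNA. Among all genes tested 30.8% were higher and 31.7% lower.

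Parts of the ribosome outside the symbol rule and the factors that work with it were compared next. Rack1, a scaffold protein of the small subunit, rose 1.15-fold (log2 fold change 0.20, limma adjusted p = 0.00472), a call that was lost with quantile normalization and after recentring. The small subunit protein gene sta was at 45239 ± 2805 and 48036 ± 4244 normalized counts and did not pass (adjusted p = 0.325, limma). Of 32 translation initiation factors 15 were higher and 8 lower, with a median of 0.037, beside 30.8% and 31.7% of all genes tested. Quantile normalization gave 5 lower and recentring 13, where 34.4% and 39.3% of all genes were lower. Of the 13 genes for subunits of eIF3, the complex that holds the small subunit ready for initiation, 10 were higher and 2 lower. The factors named here were picked for their size of change, after their values were seen.

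Among all the factors listed, eIF6 had the largest change. It keeps the large subunit from joining the small one and takes part in large subunit assembly, and it was at 986, 895, 978 and 1058 normalized counts in controls. Replicates 1 to 4 labelled ecd-RNAi had 3911, 3875, 3783 and 3489, which is 3.84-fold higher with no overlap (log2 fold change 1.94, limma adjusted p = 4.98e-09). The RNA helicase gene eIF4A rose 1.43-fold, and eIF1, which helps to select the start codon, fell by 0.60 on the log2 scale. Of 10 elongation and termination factors 5 were higher and 3 lower, or 5 lower after recentring. Over all genes tested 30.8% were higher and 31.7% lower, and 39.3% were lower after recentring. The translocase gene eEF2 rose from 80796 ± 2321 to 125573 ± 2218 normalized counts, 1.55-fold (adjusted p = 2.55e-06, limma), and eEF1alpha2, a copy of the tRNA-delivering factor, rose 2.27-fold, from 597 ± 64.1 to 1354 ± 297 (adjusted p = 4.75e-05, limma). In the other direction eEF1delta fell by 0.31 on the log2 scale.

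**Figure D4:**
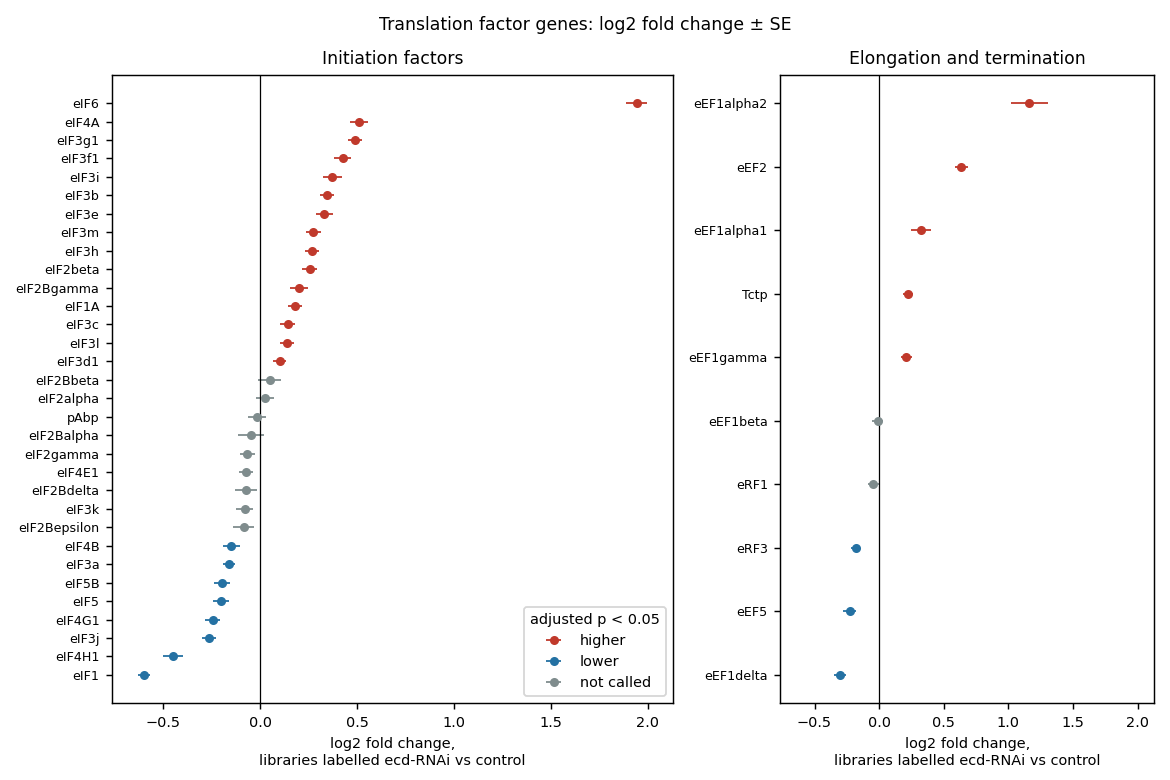
Log2 fold change with its standard error (x axis) of 32 initiation factor genes (left) and 10 elongation and termination factor genes (right), ordered by value and coloured as called at an adjusted p under 0.05. eIF6 stands apart at 1.94, most eIF3 subunits lie above 0, and eIF1 lies lowest at -0.60.

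Transcription factors known for ribosomal protein promoters in flies moved in different directions. Trf2, the TBP-related factor used at the pyrimidine-rich start sites of these genes, fell by 0.26 on the log2 scale, and Dref, which binds the DRE element, fell by 0.53 (limma adjusted p = 0.000515 and 8.51e-06). Myc, a driver of ribosome production, rose 1.18-fold, and M1BP and Tbp did not pass. Mitochondrial ribosomal proteins, the most similar group by name, gave 11 of 73 higher and 31 lower with a median log2 fold change of -0.16, beside 55 of 86 higher and 6 lower with a median of 0.19 for the cytosolic set. With quantile normalization the mitochondrial counts were 6 higher and 52 lower, and after recentring on the median 7 and 45. Of all genes tested 31.7% were lower as deposited, 34.4% with quantile normalization and 39.3% after recentring. The shares of all genes called higher were 30.8%, 25.9% and 24.4%. The difference between the 2 sets was described only and carries no test.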

How the data were processed

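Total RNA of 8 libraries was measured, 4 per group, grouped by the titles. The authors deposited normalized counts, a signal per gene that is never negative and not whole. Per the submitters' processing notes, cutadapt 3.5, kallisto 0.46.1 and DESeq2 1.34.0 were used on BDGP6; no label or header names a setting, the transcript set or, for a kit that keeps strand, whether it was used. A second table from the authors, deposited with the first, gives a log2 fold change, its standard error and Wald statistic (scores), p-values and adjusted p-values, per the file headers; it was used as an alternative. Of 92 members 32 share exon bases with another gene, 25 of them on the opposite strand, so their values are uncertain, as are those of near-identical copies.

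Genes averaging 10 normalized counts or more were fitted with limma 3.58.1 in R 4.3.3 (eBayes with a mean trend) on log2(value + 1), a scale that understates changes of low genes, with no covariate. Adjusted p-values are over all 9380 genes. Folds are ratios of group means. Exact permutation tests used scipy 1.17.1. Both kinds of test were first tried on simulated data. Lengths are median transcript lengths, and coordinates, introns and overlaps come from the Ensembl annotation of BDGP6. The worth of a read is the most frequent low value per library, an approximation that covers counting error only. Alternatives were the pseudocount, the filter, the scaling, a replicate block, each library left out and the authors' calls. Promoters and proteins were not analysed here. Replicate numbers did not pair the libraries.

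Named members were all genes of the paralog families, all that fell, the 8 with the largest rise, the 6 with the highest level per kb, RpS12 and RpL41, plus sta and Rack1; RpL40, RpS30, RpL13A, RpL18, RpS3A and the spread-out set were added after their values were seen. A gene the rule names is not reported here, and the plots of all members leave out what is not reported. Members and lists were chosen with earlier results of these data known.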

Additional observations from a re-analysis of the deposited data

Results flagged for a closer look

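In 9 of 86 groups of 4 libraries checked, 1 library stood far from the other 3 relative to the range of its group. Chance alone marks about 1 in 20 where values vary freely. A group at 0 in all libraries but 1 is always marked, as for RpL37-2, RpS10a and RpS28a below. The 9 marks can therefore not be set against that rate. RpL34b was at 8226 normalized counts in control replicate 2, below the other controls. RpS27 was at 19134 in replicate 4 labelled ecd-RNAi and RpS15Ab at 1413 in replicate 2 labelled ecd-RNAi, each below the other libraries of its group. The remaining marks come from values of a few reads at most. RpL37-2 was at 2.02 in control replicate 1 and at 0 in the other controls. RpS10a was above 0 in control replicate 4, at 1.12, and in replicate 3 labelled ecd-RNAi, at 1.66. RpS28a was above 0 in control replicate 2, at 1.18, and in replicate 3 labelled ecd-RNAi, at 1.69. RpS28-like was at 0 in control replicate 4 and above 0 in the other controls.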

How the results depend on the processing

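The counts of members higher and lower held within 1.5 times under both pseudocounts, both filters, quantile normalization, rescaling to the protein-coding sum and the authors' calls (60 higher and 6 lower). After recentring on the median 5 large subunit genes in all were lower and 13 small subunit genes higher, with a median over members of 0.094. Without 1 library at a time, 48 to 59 members were higher and 5 to 7 lower, and the median lay between 0.16 and 0.22. With the replicate number as a block 56 were higher and 6 lower; libraries of the same number did not deviate together (correlations of deviations -0.052 to 0.053), so the block is only a number. Matched by number, 4 differences cannot give an exact permutation p under 0.125, nor can 4 against 3 libraries give one under 0.0571, so no pair could pass there; matched values were 0.25 (RpL7-like), 0.58 (RpL24-like), -0.21 (RpLP0-like), 0.33 (RpS14b), -0.45 (RpS15Ab) and -1.35 (RpS19b). Without 1 library they ran from 0.21 to 0.27, 0.53 to 0.62, -0.23 to -0.17, 0.28 to 0.36, -0.49 to -0.43 and -1.50 to -1.28. Some genes that had not passed changed sign: with quantile normalization RpL22-like (-0.082), RpL34b (0.16), RpL39 (0.10) and RpS15Aa (-0.10), after recentring RpL24 (-0.062), RpLP0-like (-0.044), RpS15Aa (-0.087) and sta (-0.0068), and after rescaling RpL34b (0.022). Without 1 library RpL34b ran from -0.085 to 0.044, RpL24 from -0.025 to 0.076, RpLP0-like from -0.0051 to 0.073 and RpS15Aa from -0.029 to 0.037. The cause was not tested. Depth limits the 6 lowest paralogs, which held few or no reads.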

Other observations

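As a share of the summed ribosomal protein signal, which does not depend on how libraries were scaled, single genes shifted against each other. RpL41 went from 3.65% to 2.75% of that sum, RpL22 from 1.40% to 1.00% and RpS27A from 1.79% to 1.44%. RpS3 went from 1.28% to 1.63% and RpL28 from 0.597% to 0.819%. RpS12 stood at 0.916% in both groups. These shares are described without a test.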
